A study of Mus musculus with 24 samples.

Results

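Messenger RNA of 9 genes of the epidermal growth factor (EGF) receptor system was followed in diabetic mouse wounds and in RAW264.7 cells, a mouse macrophage cell line. They are, by symbol, the ligands Areg, Ereg, Hbegf, Tgfa, Btc and Epgn and the receptors Egfr, Erbb2 and Erbb3, 9 of the 52976 gene symbols in the count files. The wound groups were diabetic wounds treated with the Fmoc-KYF-AgNCs-3S1C-Hyd2 hydrogel and diabetic control wounds, each at days 1, 7 and 14 with 3 libraries per group. This gel is a peptide material with silver nanoclusters and a hydrogenase, made to release hydrogen under light. The cell groups were RAW264.7 cells with a hydrogel, labelled Hyd3, Hyd4 and Hyd5 in its 3 libraries, and RAW264.7 controls labelled with LPS, a bacterial activator of macrophages, in 3 libraries. The labels of the hydrogel cells do not name LPS while the series design describes both arms as LPS-induced, so a hydrogel difference in these cells cannot be told apart from one in LPS. The labels also do not settle whether Hyd3, Hyd4 and Hyd5 are 1 gel or 3 different gels, while the design names Hyd2 for the cells. The 3 libraries are treated here as replicates by their titles, and the p-values in these cells rest on that. Mouse strain and age are not given in the sources used here. No label says that libraries of a group came from separate animals or cultures, so p-values measure only the spread between these libraries.

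The EGF receptor (Egfr) is a tyrosine kinase at the cell surface that dimerises when a ligand binds, and in skin it drives keratinocyte migration and division during closure of a wound. Its ligands are made as membrane-anchored precursors and are released by proteases of the ADAM family. Erbb2 binds no known ligand and serves as the preferred dimer partner, whereas Erbb3 binds neuregulins and has a weak kinase of its own.

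Total counts were 12.4 M to 27.1 M in wound libraries and 17.9 M to 24 M in those of RAW264.7 cells. Levels are given as CPM, counts scaled to library size with TMM factors, and as CPM per kilobase of counted exon where genes are compared. Hydrogel was tested against control with the edgeR quasi-likelihood test over 17592 genes in wounds, and a gene passed if its p, adjusted by Benjamini-Hochberg over all of these, was below 0.05. Ereg was too low to enter this test, which left 8 of the 9 genes. The libraries of control wounds at day 7 differed from each other by little more than counting noise (median chi-square per gene 0.644 to 0.796, against 0.455 for noise alone), as did the RAW264.7 controls (0.511 to 0.613). Between libraries of the other groups the median was 1.29 to 34.5. Replicate 1 stood apart from the other 2 libraries of its group in control wounds at days 1 and 14 (24.9 to 34.5, against 7.25 and 8.54 between the other 2) and in hydrogel wounds at day 1 (19.8 and 26.8, against 7.63).

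RefSeq promoter sequences (GRCm38.p6, 250 bases before to 50 bases after the start) matched 6 of the 9 members, Areg, Tgfa, Btc, Epgn, Egfr and Erbb2. Those of Areg and Epgn, genes of the same chromosome 5 cluster, are shown for their correlation. Their log2 CPM had the highest Pearson correlation of any pair of tested ligands across the wound libraries (0.91). That of Erbb2 is shown because it is a receptor that differed with hydrogel. Capitals mark TGACG on either strand, the core of the cAMP response element, and TATAAA on either strand, a TATA box.
Areg, chr5:91139349-91139648, plus strand: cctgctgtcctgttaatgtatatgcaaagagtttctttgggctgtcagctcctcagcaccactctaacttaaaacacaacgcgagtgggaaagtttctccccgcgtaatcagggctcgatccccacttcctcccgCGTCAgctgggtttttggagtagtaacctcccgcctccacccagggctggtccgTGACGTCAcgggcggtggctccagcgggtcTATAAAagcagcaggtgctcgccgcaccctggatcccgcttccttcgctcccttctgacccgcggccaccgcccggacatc
Epgn, chr5:91027267-91027566, plus strand: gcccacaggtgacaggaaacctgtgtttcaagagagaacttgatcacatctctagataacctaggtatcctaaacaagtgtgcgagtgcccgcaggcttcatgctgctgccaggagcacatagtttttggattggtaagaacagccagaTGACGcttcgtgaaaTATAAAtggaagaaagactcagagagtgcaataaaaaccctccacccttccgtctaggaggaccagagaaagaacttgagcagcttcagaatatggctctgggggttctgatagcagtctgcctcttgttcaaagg
Erbb2, chr11:98412234-98412533, plus strand: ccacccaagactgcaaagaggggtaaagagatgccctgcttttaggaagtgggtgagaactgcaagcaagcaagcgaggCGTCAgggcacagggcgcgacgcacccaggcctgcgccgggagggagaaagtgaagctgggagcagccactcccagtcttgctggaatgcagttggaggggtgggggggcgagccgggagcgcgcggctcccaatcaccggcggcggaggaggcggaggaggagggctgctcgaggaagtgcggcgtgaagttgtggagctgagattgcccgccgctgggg
The full element TGACGTCA was in the Areg window at position -61 from the start site, where it holds a core on each strand, and is in 1.79% of 32851 RefSeq promoter windows of this length. The core TGACG was in the windows of Areg, Epgn, Erbb2 and Btc, and is in 20.8% of all windows. TATAAA was in those of Areg at -31 and Epgn at -86, and is in 13.6% of all windows. The AP-1 motif TGANTCA (7.81% of all windows) and the E2F motif TTTGGCGC (0.514%) were in none of the 6 windows. The GC box GGGCGG (35.7%) was in those of Areg, Tgfa and Egfr, and the ETS motif CCGGAAG (8.86%) in that of Egfr. All motifs were searched on both strands. The matches are a description of letters in these windows.

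Epgn, Ereg, Areg and Btc lie in 1 cluster of 376 kb on chromosome 5 (chr5:91027464-91402994, GRCm38), Btc on the minus strand and the others on the plus strand. The remaining ligand genes are Tgfa at chr6:86195223-86272219 and Hbegf at chr18:36504927-36515805. The receptors are Egfr at chr11:16752203-16918158, Erbb2 at chr11:98412470-98437716 and Erbb3 at chr10:128567523-128589652. Counts came from exons. The counted Ereg exons covered 545 bases, the first 4 of the 5 exons in GENCODE M21 of the same build and 13.2% of its length, since exon 5 at chr5:91090064-91093646 was not among them. Of the counted bases, 141 of Ereg overlap exons of Gm19610 and 118 of Tgfa overlap those of Gm43917, both on the other strand, and pairs assigned to both genes were not counted. The counted exons held 46.1% of the M21 length for Tgfa, with 3500 bases at the 3′ end left out, and 67.9% for Btc, against 97.4% to 100% for the other members. Levels of Ereg, Tgfa and Btc therefore rest on part of their transcripts.

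Levels per length differed between members and groups. Median CPM per kilobase over the 18 wound libraries was 3.28 for Epgn, 2.52 for Hbegf, 0.803 for Areg, 0.533 for Btc, 0.226 for Tgfa and 0.0679 for Ereg. The receptors had medians of 7.21 for Erbb2, 7.07 for Egfr and 6.66 for Erbb3. This order did not hold in every group. In control wounds at day 7 Epgn averaged 0.187 CPM per kilobase and Btc 0.58, with Epgn below Btc in each library. In control wounds at day 1 Hbegf averaged 6.98 and Epgn 6.45 CPM per kilobase, against 5.27 for Erbb2 and 4.82 for Erbb3, with wide overlap. The ranges of all neighbours in this order overlapped.

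**Figure D1:**
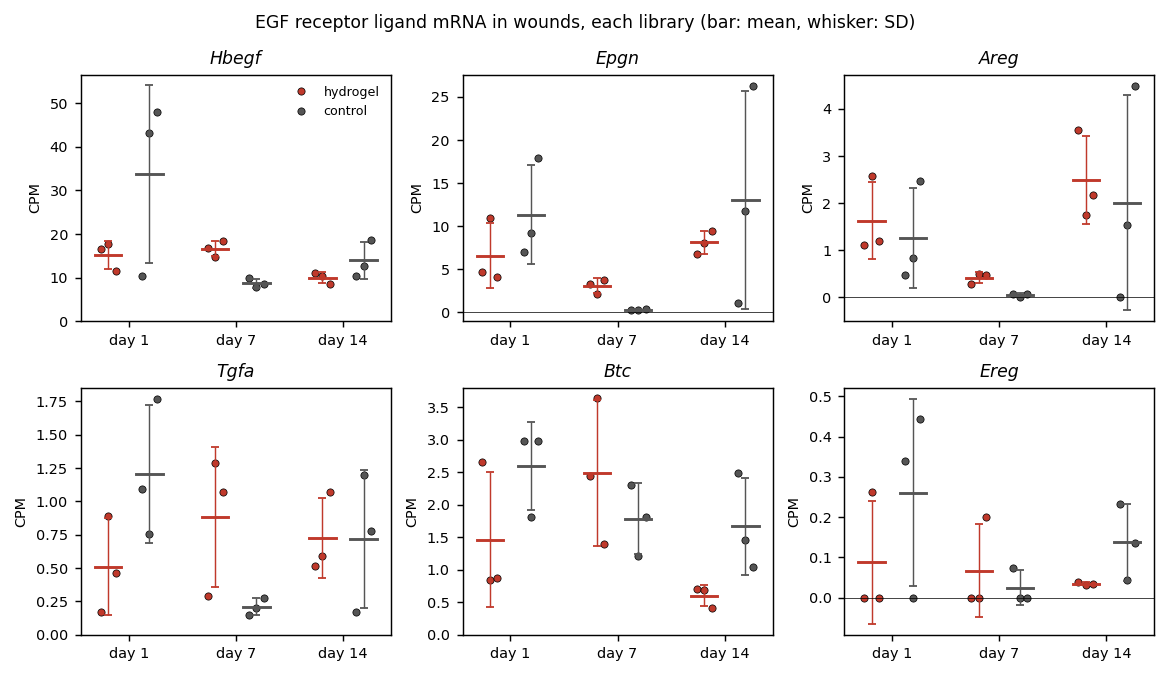
CPM of the 6 ligand genes in each wound library (points), with the group mean (bar) and SD (whisker), hydrogel left of control at each day. At day 7 Epgn lay at 2.13 to 3.81 CPM in hydrogel wounds and at 0.271 to 0.419 CPM in control wounds, and the control wounds at days 1 and 14 were widely spread.

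At day 7, 3 of the 8 tested members were higher in hydrogel wounds and none was lower: the ligand Epgn and the receptors Erbb2 and Erbb3. Of all genes tested, 21.6% passed in either direction and 9.86% passed as higher. The median log2 fold change was 1.63 over the 8 members and 0.01 over all genes.

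Epgn encodes epigen, a ligand of the EGF receptor with low affinity. At day 7 it had 3.3, 2.13 and 3.81 CPM in hydrogel wounds, against 0.297, 0.271 and 0.419 CPM in control wounds. All hydrogel libraries lay above all control libraries, where only 4 to 6 pairs were counted per library. Such a separation in this direction held for 35.3% of all genes. Epgn was 9.17-fold higher in hydrogel wounds (log2 fold change 3.20 ± 0.88 SE, adjusted p = 0.0196). Within control wounds Epgn fell by 5.08 ± 0.90 on the log2 scale at day 7 against day 1 (adjusted p = 0.00123). Within hydrogel wounds the log2 fold change at day 7 against day 1 was -1.10 ± 0.72 and did not pass (adjusted p = 0.294). At day 14 Epgn had 6.83, 8.05 and 9.5 CPM in hydrogel wounds, against 1.04, 11.8 and 26.3 CPM in control wounds. The 3 hydrogel libraries lay inside the range of the controls, and the log2 fold change was -0.69 ± 0.69 (adjusted p = 0.524).

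Hbegf encodes heparin-binding EGF-like growth factor, a ligand known from keratinocytes and macrophages of wounds. At day 1 it had 16.5, 17.7 and 11.5 CPM in hydrogel wounds, against 10.3, 43.1 and 47.9 CPM in control wounds. Replicate 1 of the controls lay below every hydrogel library and the other 2 controls lay above every one. The log2 fold change at day 1 was -1.15 ± 0.40 and did not pass (adjusted p = 0.0873). Without replicate 1 of the day 1 controls it was -1.58 (adjusted p = 0.00318). At day 7 Hbegf had 16.9, 14.8 and 18.4 CPM in hydrogel wounds, against 9.89, 7.93 and 8.52 CPM in control wounds. These groups did not overlap, which held for 35.3% of all genes in the same direction, and the log2 fold change of 0.93 ± 0.40 did not pass (adjusted p = 0.11). At day 14 it had 11.0, 10.5 and 8.56 CPM in hydrogel wounds, against 10.5, 12.8 and 18.6 CPM in control wounds, and the groups overlapped, with a log2 fold change of -0.48 ± 0.40 (adjusted p = 0.429).

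The hydrogel difference of Hbegf and of Epgn changed between days, by an interaction test of 2 degrees of freedom (adjusted p = 0.0474 for Hbegf and 0.0387 for Epgn). These were 2 of the 8 tested members, and 15.8% of all genes passed this test. For both genes the log2 fold change was negative at day 1 and day 14 and positive at day 7. Both calls were close to the threshold. That of Hbegf was lost on leaving out any 1 of 15 libraries (adjusted p = 0.0568 to 0.112), all but replicate 1 of the day 1 controls and replicates 1 and 3 of the day 14 controls. That of Epgn was lost on leaving out any 1 of 14 libraries (adjusted p = 0.0506 to 0.104), with replicate 2 of the hydrogel wounds at day 1 as a further exception. Over all genes 1619 to 5295 passed the interaction test without a single library, against 2785 with all libraries.

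Areg encodes amphiregulin, a low-affinity ligand that keratinocytes use on themselves. At day 7 it had 0.287, 0.504 and 0.468 CPM in hydrogel wounds, against 0.0744, 0 and 0.0698 CPM in control wounds. The 3 control libraries held 2 counted pairs between them. The groups did not overlap, which held for 35.3% of all genes in the same direction, and the log2 fold change of 2.99 ± 1.52 did not pass (adjusted p = 0.165). Within control wounds Areg fell by 4.56 ± 1.39 on the log2 scale at day 7 against day 1 (adjusted p = 0.0221), which was lost without replicate 3 of day 1 (adjusted p = 0.0984) or without any 1 day 7 control. At day 14 Areg averaged 2.49 ± 0.943 CPM in hydrogel wounds and 2.01 ± 2.28 CPM in control wounds (SD, n = 3 each), with replicate 1 of the controls at 0. Over the 18 wound libraries the log2 CPM of Areg and Epgn had a Pearson correlation of 0.91. This describes libraries that share their group, their depth and their tissue make-up.

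Tgfa encodes transforming growth factor alpha, a high-affinity ligand. At day 7 it had 0.287, 1.29 and 1.07 CPM in hydrogel wounds, against 0.149, 0.203 and 0.279 CPM in control wounds. The lowest hydrogel library lay just above the highest control, and 35.3% of all genes likewise had no overlap in this direction. The log2 fold change was 2.04 ± 0.77 and did not pass (adjusted p = 0.0686). Within control wounds Tgfa fell by 2.48 ± 0.76 on the log2 scale at day 7 against day 1 (adjusted p = 0.0227), which was lost without replicate 3 of day 1 (adjusted p = 0.0843) or without any 1 day 7 control. Its log2 fold change was -1.18 ± 0.67 at day 1 (adjusted p = 0.279) and -0.01 ± 0.62 at day 14 (adjusted p = 0.996).

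Btc encodes betacellulin, a ligand that binds both Egfr and Erbb4. At day 14 it had 0.71, 0.686 and 0.414 CPM in hydrogel wounds, against 2.49, 1.46 and 1.05 CPM in control wounds. All hydrogel libraries lay below the controls, as in 20% of all genes. The log2 fold change of -1.45 ± 0.51 did not pass (adjusted p = 0.0646). It was 0.49 ± 0.50 at day 7 (adjusted p = 0.491) and -0.87 ± 0.50 at day 1 (adjusted p = 0.289). Without replicate 1 of the hydrogel wounds at day 1 the day 1 value was -1.58 (adjusted p = 0.0421). Ereg encodes epiregulin, a ligand of Egfr and Erbb4. Its 545 counted bases held 32 pairs over the 18 wound libraries, none in 7 of them and at most 7 in any 1, so no comparison was possible at this depth.

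**Figure D2:**
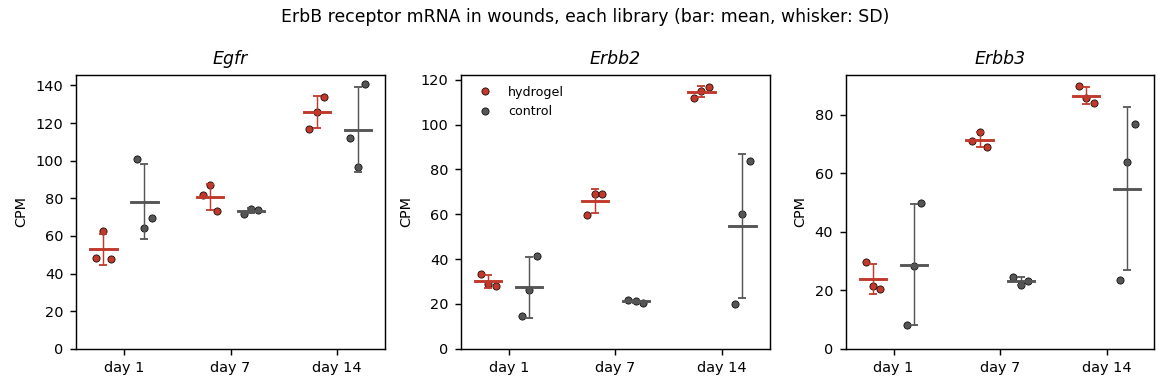
CPM of Egfr, Erbb2 and Erbb3 in each wound library (points), with the group mean (bar) and SD (whisker), hydrogel left of control at each day. Erbb2 and Erbb3 in hydrogel wounds stood apart from control wounds at day 7, while Egfr did not.

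Both partner receptors were about 3-fold higher in hydrogel wounds at day 7, and Egfr itself was not called. Erbb2 had 59.7, 69.0 and 69.1 CPM in hydrogel wounds at day 7, against 21.6, 21.3 and 20.5 CPM in control wounds. The groups were far apart, and Erbb2 was 3.12-fold higher (log2 fold change 1.64 ± 0.40, adjusted p = 0.0107). Erbb3 had 71.1, 74.3 and 69.1 CPM in hydrogel wounds at day 7, against 24.5, 21.7 and 23.3 CPM in control wounds. It was 3.09-fold higher (log2 fold change 1.63 ± 0.47, adjusted p = 0.0253). Egfr had 81.8, 87.0 and 73.4 CPM in hydrogel wounds, against 71.8, 74.4 and 74.0 CPM in control wounds. These groups overlapped, with a log2 fold change of 0.14 ± 0.20 (adjusted p = 0.638).

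The calls of these members at day 7 did not hold when the 3 libraries of each day 7 group were added up into 1. That fit leaves 1 library in each day 7 group, so it cannot decide on single genes. The day 7 libraries were close to each other (median chi-square 0.644 to 0.796 in control and 1.29 to 2.31 in hydrogel wounds, against 0.455 for noise alone). No label says that they came from separate animals. If they were repeats of 1 sample, the day 7 p-values would not measure a spread between animals. Leaving out any single day 7 library ended the call of Erbb3 (adjusted p = 0.0587 to 0.0827), and leaving out any of them but replicate 2 of the hydrogel wounds ended that of Epgn (adjusted p = 0.05 to 0.073). Erbb2 passed without any single day 7 library. In these fits 1859 to 1990 of all genes passed, against 3792 with all libraries, so many other genes lost their call as well.

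At day 14, 0 of the 8 tested members passed edgeR's quasi-likelihood test, against 16.1% of all genes (5.83% higher and 10.3% lower). Without adjustment, 2 were under 0.05, and DESeq2 called 2, Btc and Erbb2, and limma-voom with quality weights 1, Erbb2. The median log2 fold change was 0.05 over the 8 members and 0.03 over all genes. Erbb2 had 112, 115 and 117 CPM in hydrogel wounds at day 14, against 20.1, 60.2 and 83.6 CPM in control wounds. Erbb3 had 89.7, 85.9 and 84.0 CPM in hydrogel wounds, against 23.4, 63.9 and 76.9 CPM in control wounds. For both receptors the hydrogel libraries were close together and lay above every control, as 23.8% of all genes did, while the controls ran over a several-fold range with replicate 1 lowest. The log2 fold change was 1.07 ± 0.39 for Erbb2 (adjusted p = 0.0716) and 0.66 ± 0.46 for Erbb3 (adjusted p = 0.343). Without replicate 1 of the controls it was 0.67 for Erbb2 (adjusted p = 0.2) and 0.30 for Erbb3 (adjusted p = 0.757). Egfr differed by 0.11 ± 0.20 (adjusted p = 0.74).

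At day 1, 0 of the 8 tested members passed edgeR's quasi-likelihood test, against 7.55% of all genes (4.53% higher and 3.02% lower). Without adjustment, 2 were under 0.05, and DESeq2 called 2, Hbegf and Egfr, and limma-voom with quality weights 3, Hbegf, Egfr and Erbb3. The median log2 fold change was -0.67 over the 8 members and 0.04 over all genes. Egfr had 48.4, 62.5 and 47.5 CPM in hydrogel wounds at day 1, against 101, 64.4 and 69.4 CPM in control wounds. All hydrogel libraries lay below all controls, as 7.52% of all genes did, and the log2 fold change of -0.57 ± 0.20 did not pass (adjusted p = 0.087). Without replicate 1 of the controls, the highest of the 6, it was -0.34 (adjusted p = 0.25). Erbb2 differed by 0.13 ± 0.39 (adjusted p = 0.859) and Erbb3 by -0.27 ± 0.46 (adjusted p = 0.748).

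**Figure D3:**
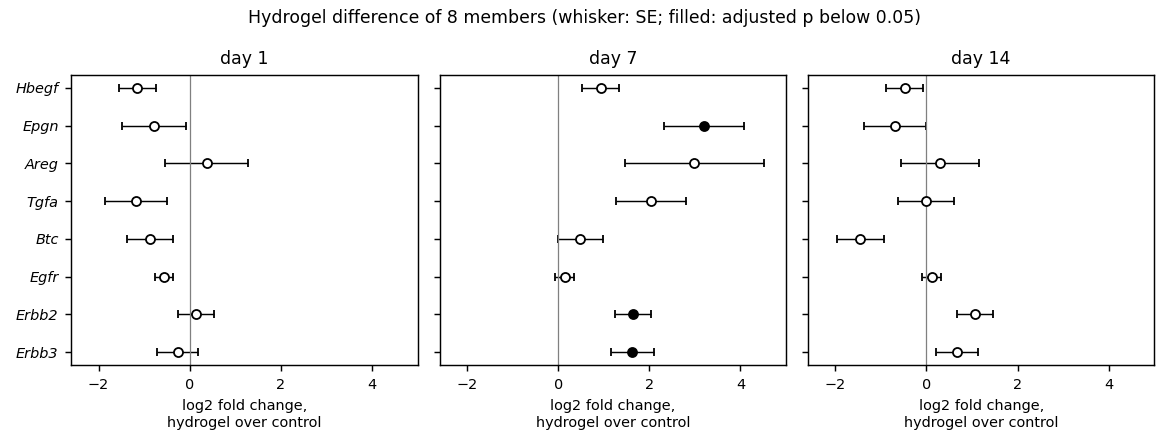
Log2 fold change of hydrogel over control for the 8 tested members at each day (points), with its SE (whisker), filled where the adjusted p was below 0.05. The filled points are Epgn, Erbb2 and Erbb3 at day 7.

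Averaged over the 3 days, Erbb2 was the 1 member of 8 that passed, as higher, where 31.8% of all genes passed and 15.6% were higher. Erbb2 was 1.93-fold higher in hydrogel wounds (log2 fold change 0.95 ± 0.23, adjusted p = 0.00708), and Erbb3 differed by 0.67 ± 0.27 (adjusted p = 0.0662). With day 7 added up 0 of all genes passed in the average, against 5594, Erbb2 among those lost (adjusted p = 0.174). Its call held in each of the other 25 fits.

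Within the hydrogel arm all 3 receptors rose by day 14. At day 14 against day 1, 3 of 8 members passed, all higher, where 47.8% of all genes passed and 21.8% were higher. Erbb2 rose 3.81-fold (log2 fold change 1.93 ± 0.40, adjusted p = 0.00147), Erbb3 3.63-fold (1.86 ± 0.48, adjusted p = 0.00546) and Egfr 2.38-fold (1.25 ± 0.20, adjusted p = 0.00028). These 3 calls held in all 15 alternative fits. The 5 tested ligands did not pass in this comparison, with log2 fold changes of -1.23 for Btc to 0.60 for Areg. At day 7 against day 1, 2 of 8 members passed, both higher, where 18.3% of all genes passed and 7.76% were higher: Erbb3 (1.59 ± 0.47, adjusted p = 0.0316) and Egfr (0.61 ± 0.20, adjusted p = 0.0431). That of Egfr was lost without any 1 of the 6 libraries compared (adjusted p = 0.0559 to 0.143), and that of Erbb3 without any but replicate 1 of day 1 (adjusted p = 0.0699 to 0.114). Without a single library 999 to 5169 of all genes passed in this comparison, against 3221 with all libraries. With day 7 added up 1 of all genes passed, and neither receptor did.

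Within the control arm 4 of the 5 tested ligands fell at day 7 against day 1. They were the members that passed, 4 of 8, all lower, where 31.6% of all genes passed and 16.6% were lower. Besides Epgn, Areg and Tgfa, Hbegf fell by 1.94 ± 0.41 on the log2 scale (adjusted p = 0.00356). All 4 were lost with day 7 added up (adjusted p = 0.157 to 0.289), where 97 of all genes passed against 5553, and Hbegf also with only the compared groups fitted (adjusted p = 0.0504). At day 14 against day 1, 2 of 8 members passed, where 32.4% of all genes passed, 16.7% higher and 15.7% lower: Hbegf fell by 1.27 ± 0.40 (adjusted p = 0.0252) and Egfr rose by 0.58 ± 0.20 (adjusted p = 0.0357). That of Hbegf was lost without replicate 2 or 3 of day 1 or replicate 1 or 2 of day 14 (adjusted p = 0.0713 to 0.111), and that of Egfr without replicate 2 or 3 of day 1 or replicate 3 of day 14 (adjusted p = 0.111 to 0.148). Neither passed with day 7 added up (adjusted p = 0.0859 for Hbegf and 0.125 for Egfr) or with only the compared groups fitted (0.238 and 0.262; 77 of all genes passed). The hydrogel and time comparisons share their groups and are not independent of each other.

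**Figure D4:**
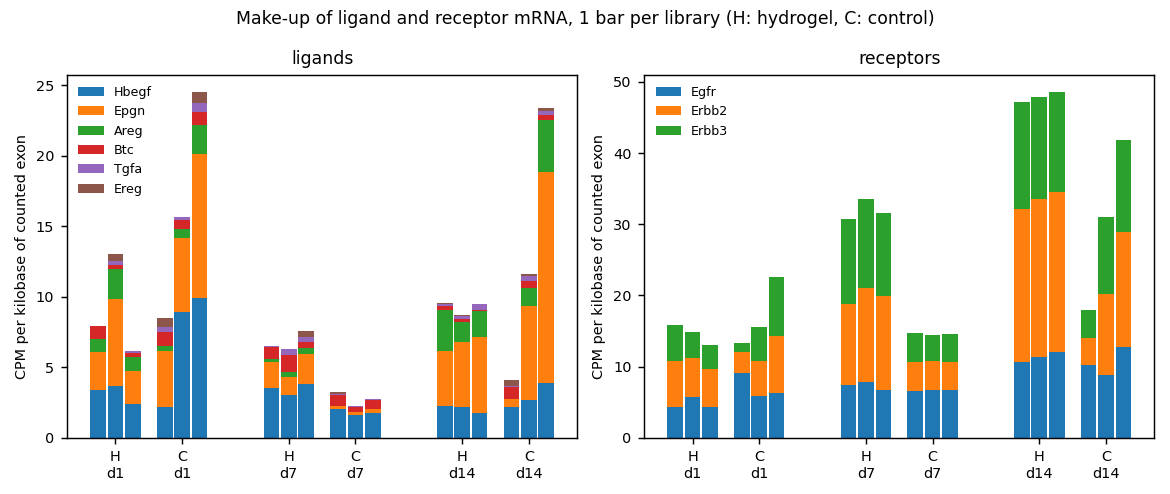
CPM per kilobase of counted exon for the ligand genes (left) and receptor genes (right), stacked within each of the 18 wound libraries, H for hydrogel left of C for control at each day. In hydrogel wounds the receptor sum lay at 30.8 to 33.6 at day 7 and 47.2 to 48.6 at day 14, against 14.5 to 14.8 and 18 to 41.7 in control wounds.

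The make-up of the family differed with the group. Summed per length, the ligands stood at 6.3 to 7.53 CPM per kilobase in hydrogel wounds at day 7, against 2.26 to 3.21 in control wounds. Epgn made up 19.2% to 28.9% of that ligand sum in hydrogel wounds and 5.26% to 8.68% in control wounds, and Hbegf 48.6% to 53.7% in hydrogel wounds and 63.7% to 72.6% in control wounds. These shares are parts of 1 sum and so are not independent of each other. The level of Hbegf itself was 14.8 to 18.4 CPM in hydrogel wounds and 7.93 to 9.89 CPM in control wounds at day 7. Among the receptors, Egfr held 21.1% to 24.1% of the receptor sum in hydrogel wounds and 44% to 46.5% in control wounds at day 7. The ratio of Erbb2 to Egfr per length, which needs no scaling between libraries, was 1.55 to 2 in hydrogel wounds and 0.586 to 0.639 in control wounds at day 7. At day 14 the ratio was 1.85 to 2.03 in hydrogel wounds and 0.379 to 1.32 in control wounds, and at day 1 it was 0.982 to 1.47 in hydrogel wounds and 0.31 to 1.27 in control wounds. Erbb3 and Erbb2 moved together: their ratio per length ran only over 0.487 to 1.04 across the 18 wound libraries, and their log2 CPM had a Pearson correlation of 0.95.

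At day 7 most keratinocyte marker genes were higher in hydrogel wounds, as were Epgn, Erbb2 and Erbb3. Summed over 8 genes of basal keratinocytes, Krt5 and Krt14 among them, the level was 7584 to 7655 CPM in hydrogel wounds at day 7 and 712.5 to 723.4 CPM in control wounds, and 7 of the 8 passed as higher. In the same comparison 5 of 8 suprabasal, 6 of 8 wound-edge keratinocyte, 7 of 8 melanocyte and 5 of 8 sebaceous gland markers were higher. Lower in hydrogel wounds were 8 of 8 macrophage, 8 of 8 fibroblast, 7 of 8 endothelial, 7 of 8 adipocyte and 6 of 6 tested erythrocyte markers. Of all genes, 9.86% passed as higher and 11.7% as lower at day 7. Macrophage markers summed to 194.4 to 198.6 CPM in hydrogel wounds and to 1264 to 1270 CPM in control wounds. At day 14 the basal keratinocyte sum was 4811 to 5617 CPM in hydrogel wounds and 542.4, 4014 and 5610 CPM in control wounds. The lowest was replicate 1, which was also the lowest day 14 control in Erbb2, Erbb3, Epgn, Areg, Tgfa and Hbegf. It was the middle day 14 control in Egfr and the highest in Btc and Ereg, Ereg with only 1 to 4 pairs per library. At day 1 the sums overlapped, at 2459 to 4112 CPM in hydrogel wounds and 1870 to 4163 CPM in control wounds. From day 7 to day 14 the basal keratinocyte sum of hydrogel wounds went down, while mean Epgn, Erbb2 and Erbb3 went up. Epgn went from 3.08 to 8.12 CPM, Erbb2 from 65.9 to 115 CPM and Erbb3 from 71.5 to 86.5 CPM. Sums of wound-edge keratinocyte markers in hydrogel wounds also went up, at 1013 to 1105 CPM at day 7 and 1686 to 1978 CPM at day 14. Those of hair follicle markers (15.15 to 16.7 and 2333 to 4267 CPM) and melanocyte markers (259.5 to 283 and 1197 to 1584 CPM) went up as well. Sums of suprabasal keratinocyte and sebaceous gland markers overlapped between these days. These changes from day 7 to day 14 were not tested. The part of these cell types in the results was not tested. In bulk tissue a larger share of cells of a type and more RNA per cell cannot be told apart.

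The 2 genes whose log2 CPM was most like each member over the 18 wound libraries were Bspry and Emp2 for Erbb2 (Pearson correlation 0.985 each), and Emp2 and Calml3 for Erbb3 (0.97 and 0.969). For Egfr they were Nsd3 and Rasgef1b (0.932 and 0.922). Among the ligands they were Wdr46 and Nop2 for Epgn (0.922 and 0.919), Nop2 and Utp20 for Areg (0.933 and 0.921), Depdc7 and Nrtn for Hbegf (0.925 and 0.883), M6pr and Aloxe3 for Tgfa (0.835 and 0.824), and Pkib and Ndfip1 for Btc (0.846 and 0.839). Areg and Epgn thus shared Nop2, and Erbb2 and Erbb3 shared Emp2, among their nearest genes.

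Of the other ErbB ligands and receptor, 4 of 6 could be tested in wounds, and Nrg2, which encodes a neuregulin and so a ligand of Erbb3, was the 1 that passed at day 7. Nrg2 averaged 4.36 ± 0.901 CPM in hydrogel wounds and 0.954 ± 0.407 CPM in control wounds at day 7 (SD, n = 3 each; log2 fold change 2.18 ± 0.64, adjusted p = 0.0255). Egf, the founding ligand, averaged 19 ± 0.649 CPM in hydrogel wounds and 4.95 ± 0.378 CPM in control wounds, with an adjusted p of 0.0548. Nrg4, a neuregulin that binds Erbb4, averaged 20.6 ± 2.48 CPM in hydrogel wounds and 38.9 ± 2.63 CPM in control wounds, a log2 fold change of -0.92 ± 0.67 that did not pass (adjusted p = 0.334). Nrg1 differed by 1.10 ± 0.68 (adjusted p = 0.256). Erbb4, the fourth receptor of the family, stayed at or below 0.502 CPM in every wound library and was not tested.

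Of 12 genes of ligand shedding, 1 was higher and 3 were lower in hydrogel wounds at day 7. Of all genes, 9.86% were higher and 11.7% lower. Rhbdl2, an intramembrane protease that can cut EGF-family precursors, was higher (log2 fold change 3.48 ± 0.65, adjusted p = 0.00328). The metalloproteases Adam12 (-4.18 ± 0.77, adjusted p = 0.00307), Adam19 (-1.65 ± 0.38, adjusted p = 0.00834) and Adam15 (-1.54 ± 0.48, adjusted p = 0.0328) were lower. Adam17, the main sheddase of several of these ligands, averaged 41.1 ± 1.72 CPM in hydrogel wounds and 37.9 ± 0.995 CPM in control wounds and did not pass. At day 14, 4 of 12 were lower and none higher: Adam19, Adam8, Adam12 and Adam9. Of all genes, 10.3% were lower and 5.83% higher at day 14.

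Of 20 target genes of growth factor signalling, early-induced transcription factors together with genes such as Ccnd1, Plau and Mmp3, 8 were higher and none was lower in hydrogel wounds at day 7, with a median log2 fold change of 0.77 over the list and 0.01 over all genes. The 4 with the smallest adjusted p were Fosl2 (1.41 ± 0.17, adjusted p = 0.000721), Ier3 (1.39 ± 0.22, adjusted p = 0.00163), Myc (2.05 ± 0.35, adjusted p = 0.00238) and Junb (1.36 ± 0.26, adjusted p = 0.00362). All 4 respond to many other signals as well. At day 1, 1 was higher, Jun, and 4 were lower, Egr1, Fosl1 and Myc with the smallest adjusted p, and at day 14, 3 were higher and 3 lower. Of 20 feedback inhibitors, 4 were higher and 1 was lower at day 7. Cblc, a ubiquitin ligase of epithelia (3.84 ± 0.79, adjusted p = 0.0049), and Dusp5, a phosphatase of ERK (1.94 ± 0.39, adjusted p = 0.00462), had the smallest adjusted p of these. Errfi1, an inhibitor that binds the Egfr kinase, was lower at day 1 (-1.85 ± 0.51, adjusted p = 0.0405) and at day 14 (-2.73 ± 0.53, adjusted p = 0.00456). Of 24 adaptors and effectors, 2 passed at day 7, Src and Hras, both higher. These counts stand beside the 9.86% of all genes higher and 11.7% lower at day 7. The shares were 4.53% higher and 3.02% lower at day 1, and 5.83% higher and 10.3% lower at day 14.

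Of the 9 members, 1 ligand and 1 receptor could be tested in RAW264.7 cells. Hbegf made up at least 98.9% of the sum of the 6 ligands per length in every RAW264.7 library, and Erbb3 at least 99.7% of that of the 3 receptors. No pair was counted for Egfr, Areg, Ereg, Tgfa or Btc in any of the 6 libraries, which allows up to 0.0466 CPM over the hydrogel group and 0.0438 CPM over the control group. Erbb2 had 1 counted pair, in a hydrogel library. Epgn had none in 3 hydrogel libraries, against 8, 4 and 3 pairs in control libraries, and was not tested. With the hydrogel group set at a floor of 3 counts, it lay 4.7-fold below the control group. This takes the 15 control pairs as exact, so their counting error and the spread between libraries are not covered. Of the other ErbB ligands, Nrg4 was lower with hydrogel, at 0.87 ± 0.177 CPM in hydrogel cells and 1.85 ± 0.486 CPM in control cells (SD, n = 3 each; log2 fold change -1.06 ± 0.25, edgeR adjusted p = 0.00324), and Egf differed by -0.58 ± 0.34 (adjusted p = 0.152).

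Hbegf and Erbb3 were both lower with hydrogel in these cells, where 72.5% of the 12972 tested genes passed, 34.7% as higher and 37.8% as lower. In both genes the hydrogel cells lay below all controls, as 39.9% of tested genes did. Hbegf had 31.9, 34.0 and 35.1 CPM in hydrogel cells, against 79.8, 79.7 and 82.1 CPM in control cells. Hbegf was 2.39-fold lower (log2 fold change -1.26 ± 0.06, adjusted p = 9.81e-08). Erbb3 had 17.5, 17.5 and 20.5 CPM in hydrogel cells, against 22.4, 21.4 and 23.8 CPM in control cells. It was 1.22-fold lower (log2 fold change -0.28 ± 0.09, adjusted p = 0.0135), a call lost without replicate 2 of the hydrogel cells (adjusted p = 0.107) or replicate 3 of the controls (adjusted p = 0.0648), and with no filter on low counts (adjusted p = 0.156).

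**Figure D5:**
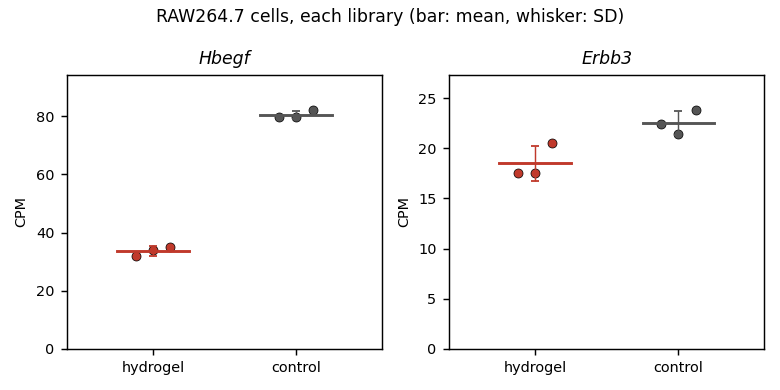
CPM of Hbegf and Erbb3 in each RAW264.7 library (points), with the group mean (bar) and SD (whisker), hydrogel left of control. Hbegf lay at 31.9 to 35.1 CPM in hydrogel cells and 79.7 to 82.1 CPM in control cells.

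The macrophage markers Cd68 and Csf1r were high in both cell groups, at 1040 to 1060 and 888 to 956 CPM in hydrogel cells, against 727 to 780 and 437 to 440 CPM in control cells. These 2 were higher with hydrogel, while 3 others of the 6 tested markers in the list, named after their values were seen, were lower: Fcgr1 (log2 fold change -1.53), Adgre1 (-1.60) and Itgam (-0.39). The tissue-macrophage genes C1qa, C1qb and Mrc1 of the same list, named after their values were seen, stayed at or below 0.752 CPM. Krt5 and Krt14 were at 0 in all 6 libraries. Of the 12 LPS response genes 7 were lower and 1 was higher with hydrogel, and their sum was 35440 to 36520 CPM in hydrogel cells and 46760 to 46970 CPM in control cells. Of the 8 tested shedding genes 5 were lower and 1 was higher, Adam9 (-1.19 ± 0.05, adjusted p = 6.1e-08), Adam17 (-0.62 ± 0.06, adjusted p = 4.15e-06) and Adam10 (-0.66 ± 0.07, adjusted p = 8.74e-06) being the lower ones with the smallest adjusted p. Of the 20 growth factor target genes 12 were higher and 4 lower, led by Myc (2.01 ± 0.07, adjusted p = 1.86e-08). These counts stand beside the 34.7% of all tested genes higher and 37.8% lower in these cells.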

How the data were processed

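The members and all gene lists were chosen with earlier results of these data known. The authors deposited counts of read pairs per gene symbol for 24 libraries. The tools named in the submitters' processing notes are HISAT2 2.2.1 with the mm10 build, SAMtools 1.9, featureCounts 2.0.6, Trim Galore 0.6.10 and FastQC 0.11.9. Per the file headers, exons of the GENCODE M25 annotation were counted by gene name without use of strand, and pairs that hit several places or several genes were left out. The deposited exon length of each gene was used for levels per kilobase.

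Samples were grouped by their titles. Analyses were run in R 4.3.3 with edgeR 4.0.16: filterByExpr (minimum count 10, minimum total 15), TMM scaling, and the quasi-likelihood F test with robust dispersion, fitted once to the 6 wound groups (18 libraries, leaving 12 degrees of freedom) and once to the RAW264.7 groups (6 libraries, leaving 4). Adjusted p-values run over all 17592 or 12972 genes tested. Rose, fell, higher and lower with a fold are used of genes that passed at 0.05. Fold changes are hydrogel over control, or the later day over day 1, as edgeR estimates with their SE. A floor of 3 counts was used where a group had none. The fits were tested on simulated counts with known changes. These were drawn as independent libraries with 1 spread per gene, so unequal spread between groups and related libraries were not covered. Libraries held 12.4 M to 27.1 M counts, so low members rest on few pairs.

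All members are given in every hydrogel comparison. From a pathway list, up to 4 genes with the smallest adjusted p are named, from a marker list the first 2, and for each tested member the 2 genes with the highest Pearson correlation of log2 CPM (prior count 2), predicted symbols left out. Alternatives were RLE size factors, no filter, a minimum count of 30, DESeq2 1.42.0, limma-voom (limma 3.58.1) with quality weights, replicate number as a block, only the compared groups, each day 7 group added up into 1 library, the day 1 and day 14 controls without replicate 1, and each library left out in turn. Replicate numbers are not stated to pair samples. Promoter sequences are from RefSeq. Reads were not used here.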

Additional observations from a re-analysis of the deposited data

Results flagged for a closer look

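The hydrogel difference of 2 ligands changed between wound days by the interaction test of edgeR. For Hbegf (adjusted p = 0.0474) the log2 fold change of hydrogel over control was -1.15 at day 1, 0.93 at day 7 and -0.48 at day 14. For Epgn (adjusted p = 0.0387) it was -0.78 at day 1, 3.20 at day 7 and -0.69 at day 14.

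Hbegf and Erbb3 lay wholly below the controls in RAW264.7 hydrogel cells and wholly above them in hydrogel wounds at day 7, as did Erbb3 at day 14, and this difference between cells and wounds was not tested. Of all genes, 39.9% lay wholly below in cells, 35.3% wholly above in wounds at day 7 and 23.8% at day 14. For Hbegf the log2 fold change was -1.26 in RAW264.7 cells and 0.93 in wounds at day 7, where it did not pass (edgeR adjusted p = 0.11). For Erbb3 it was -0.28 in RAW264.7 cells, 1.63 in wounds at day 7 and 0.66 in wounds at day 14, where it did not pass (edgeR adjusted p = 0.343). The wounds hold many cell types, with macrophage markers at 194.4 to 198.6 CPM in hydrogel wounds and 1264 to 1270 CPM in control wounds at day 7. The cells are a single line whose controls carry an LPS label, and the part of these facts in the difference was not tested. Dixon's test of single libraries was not run in groups of 3.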

How the results depend on the processing

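Counts of called members moved as follows. At day 7 (3 members) 6 were called with 2 control libraries left out (replicate 1 at days 1 and 14) or with limma-voom, 0 with the day 7 libraries summed, and 1 to 2 without a single library. At day 1 (0 members) 2 were called with the 2 controls out or DESeq2, 3 with limma-voom, and 0 to 1 without a single library. At day 14 (0 members) 1 was called with the 2 controls out or limma-voom, 2 with DESeq2 or the replicate block, and 0 to 2 without a single library. For the average (1 member) 3 were called with the 2 controls out or limma-voom, 2 with DESeq2 or the replicate block, 0 with day 7 summed, and 1 to 3 without a single library. For the interaction (2 members) 5 were called with the 2 controls out or limma-voom, 1 with no filter, 0 with day 7 summed, and 0 to 4 without a single library. Within control wounds, day 7 (4 members) gave 0 with day 7 summed, 1 with only the groups compared and 2 to 4 without a single library, and day 14 (2 members) gave 4 with the 2 controls out or limma-voom, 1 with no filter, 0 with day 7 summed or only the groups compared, and 0 to 3 without a single library. Within hydrogel wounds, day 7 (2 members) gave 5 with the 2 controls out or limma-voom, 1 with no filter or the replicate block, 0 with day 7 summed and 0 to 2 without a single library, and day 14 (3 members) gave 5 with the 2 controls out and 3 to 4 without a single library. In RAW264.7 cells (2 members) 1 to 2 were called without a single library. A member too low to be tested in a setting counts as not called. This held for Areg and Tgfa in control wounds at day 7 with only the groups compared.

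Over all genes, 3792 passed at day 7, against 0 with day 7 summed and 12321 with limma-voom. At day 1 it was 1329, against 0 with only the groups compared and 4280 with limma-voom, and at day 14 2836, against 433 and 5828 with those 2 settings. For the average it was 5594, against 0 with day 7 summed and 8298 with limma-voom. The cause of these shifts was not tested.

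Signs changed in 31 member values, none past the threshold in either setting. At day 1 Areg was -0.16 with limma-voom and -0.01 with the 2 controls out, and Erbb2 -0.21 and -0.16. At day 14 Tgfa was 0.02 with no filter and 0.14 with the replicate block, and Areg -0.28 with the 2 controls out. For the average Tgfa was -0.24 with limma-voom. In control wounds Egfr at day 7 was 0.10 with limma-voom and 0.14 with the 2 controls out, and Epgn at day 14 -0.04 with limma-voom and -0.01 with the replicate block. Over fits without a single library, hydrogel over control ran at day 1 over -0.13 to 1.33 for Areg, -0.17 to 0.57 for Erbb2 and -0.71 to 0.39 for Erbb3, and at day 14 over -0.28 to 1.63 for Areg, -0.01 to 0.27 for Egfr, -1.23 to 0.33 for Epgn and -0.44 to 0.57 for Tgfa. In control wounds, day 7 over day 1 ran over -0.21 to 0.13 for Egfr, -0.68 to 0.06 for Erbb2 and -0.76 to 0.35 for Erbb3, and day 14 over day 1 over -0.66 to 1.63 for Areg and -0.81 to 0.74 for Epgn. In hydrogel wounds, day 7 over day 1 ran over -0.04 to 0.25 for Hbegf.

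Same-numbered hydrogel and control libraries had deviations correlated at -0.02 to 0.37. No such values were taken for libraries of different numbers, so whether the numbers pair samples cannot be told from this. With the replicate block, Tgfa at day 7 (adjusted p = 0.0384), Btc (0.0464) and Erbb2 (0.0414) at day 14 and Erbb3 in the average (0.0468) passed, and the interaction of Hbegf (0.069) and Egfr in hydrogel wounds at day 7 (0.0587) did not. At these depths Ereg held too few pairs for a test. Summing the day 7 libraries leaves 1 library in each day 7 group, so that setting cannot decide on the members. Without replicate 1 of the hydrogel wounds at day 1, which also stands apart, Btc was called at day 1.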
